A study of Sus scrofa with 12 samples.

Results

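Calcium held in the endoplasmic reticulum is released, pumped back and replenished by a small set of proteins. Ryanodine receptors and IP3 receptors are the channels that let it out, SERCA pumps return it, and STIM proteins sense the loss and open ORAI channels of the plasma membrane. The 10 genes described here were the rows of the deposited count table that carry the symbols RYR2, RYR3, ITPR1, ITPR2, ITPR3, ATP2A2, ATP2A3, STIM1, STIM2 and ORAI1, chosen by name from 31908 rows. The third ryanodine receptor gene, RYR1, had 0 rows under its symbol and was not analysed here.

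The cells were paVICs, wild-type interstitial cells of the pig aortic valve, which turn toward a contractile and mineralizing state in valve calcification. LPC is lysophosphatidylcholine, a lipid of oxidized lipoproteins, and dantrolene is a muscle relaxant known as a ryanodine receptor blocker. The 4 groups of 3 libraries were vehicle (0.6% DMSO + 0.1% EtOH), LPC at 10 µM with 0.6% DMSO, dantrolene at 60 µM with 0.1% EtOH, and LPC + dantrolene at those same doses, all for 24 h. Each replicate number was a separate primary isolation from the pooled valves of several hearts. Cells were frozen, thawed and passaged before a day in low-serum medium with the treatment. The p-values below rest on the spread among 3 isolations per group that remained after the authors' batch adjustment of the counts. In the main fit that spread is 1 estimate shared by all 4 groups, not that of the groups compared. The comparisons ask which store calcium genes changed in RNA level with LPC, with dantrolene, and with LPC when dantrolene was present.

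Between 16489684 and 24105935 counts per library fell on genes, and 3 counts, taken as the floor for detection, equalled 0.114 to 0.186 CPM, the count of a gene per 1000000 counts of the library. CPM values here were scaled by the trimmed mean of M-values (TMM), and because the counts were not divided by transcript length they compare libraries for a gene and not genes with each other. Fibroblast genes were abundant, with COL1A1 at 160303 or more counts and VIM at 96565 or more in every library, as was the contractile gene ACTA2 at 124616 or more. Of 8 leukocyte markers 3 (PTPRC, CD163 and CD3E) had 0 counts in all 12 libraries, while CD14 had 201 to 451 and CD68 14 to 59. Of 7 cardiomyocyte markers with a row TNNT2 had 0 counts throughout, and the highest counts of the others were 19 for MYBPC3 and 14 for MYH7. In bulk RNA, fewer cells of a type and less RNA per cell cannot be told apart. LPC + dantrolene replicate 2 stood apart from the other replicates of its group. Of the 13216 genes tested, 27.1% had their lowest CPM of all 12 libraries there and 20.7% their highest.

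Of the 10 store calcium genes, 1 was upregulated against vehicle at a Benjamini-Hochberg adjusted p under 0.05 in the quasi-likelihood test of edgeR, the same gene in each treatment group. It was ITPR2, the gene of the type 2 IP3 receptor, the form with high sensitivity to IP3. All 10 passed the filter on low counts. The other 9 did not pass the test in any of the 6 comparisons. Of all tested genes 8.54% were called up with LPC, 7.54% with dantrolene and 6.23% with LPC + dantrolene, so 1 of 10 was near those shares. The treatments were compared with the same vehicle libraries, and the ITPR2 call was lost under 7, 5 and 9 of 19 processing alternatives in turn.

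The ryanodine receptors come first because dantrolene is aimed at them. RYR2, the receptor form of heart muscle, had few reads, with counts of 29, 0 and 8 in vehicle replicates 1 to 3 and of 10, 13 and 12 with LPC. Counts were 8, 23 and 14 with dantrolene and 27, 14 and 14 with LPC + dantrolene. Vehicle replicates 1 and 2 had the highest and lowest counts of the set. On counts all LPC + dantrolene libraries were above all LPC libraries, but scaled to CPM these groups touched (0.702 to 1.42 against 0.512 to 0.706), and every other pair of groups overlapped. The cardiomyocyte markers with a row, 7 of 10 listed, summed to between 0.0547 and 1.53 CPM. RYR2 differed from vehicle by a log2 fold change of −0.03 with LPC (95% confidence interval −1.86 to 1.79), 0.15 with dantrolene (−1.67 to 1.97) and 0.67 under LPC + dantrolene (−1.14 to 2.48). These intervals leave a several-fold change in either direction undetectable at this depth. All 3 values turned on single vehicle libraries. Without vehicle replicate 1 they were 1.37, 1.55 and 2.07, and without vehicle replicate 2 they were −0.60, −0.41 and 0.10.

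RYR3, the ryanodine receptor form of many non-muscle and smooth muscle cells, was well covered, with 170 to 675 counts per library. Its CPM was 32.2, 26.9 and 21.2 in vehicle replicates 1 to 3, 28.8, 23.9 and 30.1 with LPC, and 29.9, 24.3 and 22.3 with dantrolene. With LPC + dantrolene it was 29.9, 10.6 and 28.6. The groups overlapped, and replicate 2 of LPC + dantrolene was the single low library. Against vehicle, RYR3 differed on the log2 scale by 0.05 with LPC (95% confidence interval −0.63 to 0.72), −0.07 with dantrolene (−0.74 to 0.61) and −0.22 under LPC + dantrolene (−0.89 to 0.46). The last value was 0.18 without LPC + dantrolene replicate 2. Counts of RYR2 per 100 counts of RYR3 in the same library averaged 2.16 ± 2.15 (SD, n = 3) in vehicle, 2.26 ± 0.616 with LPC, 2.83 ± 1.19 with dantrolene and 5.15 ± 2.91 with LPC + dantrolene, with overlap of every pair of groups.

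Of the 3 IP3 receptor genes, 1 passed the test against vehicle, and their values differed in direction. ITPR1, the type 1 receptor, had a CPM of 87.9, 83.9 and 64.7 in vehicle and of 97.6, 96.3 and 104 with LPC. It was 91.3, 77.9 and 80.2 with dantrolene and 88.1, 37.4 and 80.8 with LPC + dantrolene. All 3 LPC libraries lay above all 3 vehicle libraries, but the log2 difference was 0.33 (95% confidence interval −0.31 to 0.97) and its adjusted p from edgeR with Benjamini-Hochberg adjustment was 0.657. Against vehicle the log2 fold change was 0.08 with dantrolene and −0.20 with LPC + dantrolene, or 0.15 without replicate 2 of that group.

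ITPR2 had the widest span of the genes with counts in every library, 7.80-fold from lowest to highest CPM. Its CPM in replicates 1 to 3 was 6.34, 4.32 and 2.38 in vehicle, from 41 to 133 counts. It was 10.9, 14.0 and 9.52 with LPC, 8.49, 14.5 and 12.8 with dantrolene, and 14.2, 2.24 and 17.4 with LPC + dantrolene. All LPC and all dantrolene libraries lay above all vehicle libraries. In LPC + dantrolene, replicates 1 and 3 were above every vehicle library and replicate 2 was below all of them, 7.06-fold under the mean of the other replicates of its group.

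**Figure D1:**
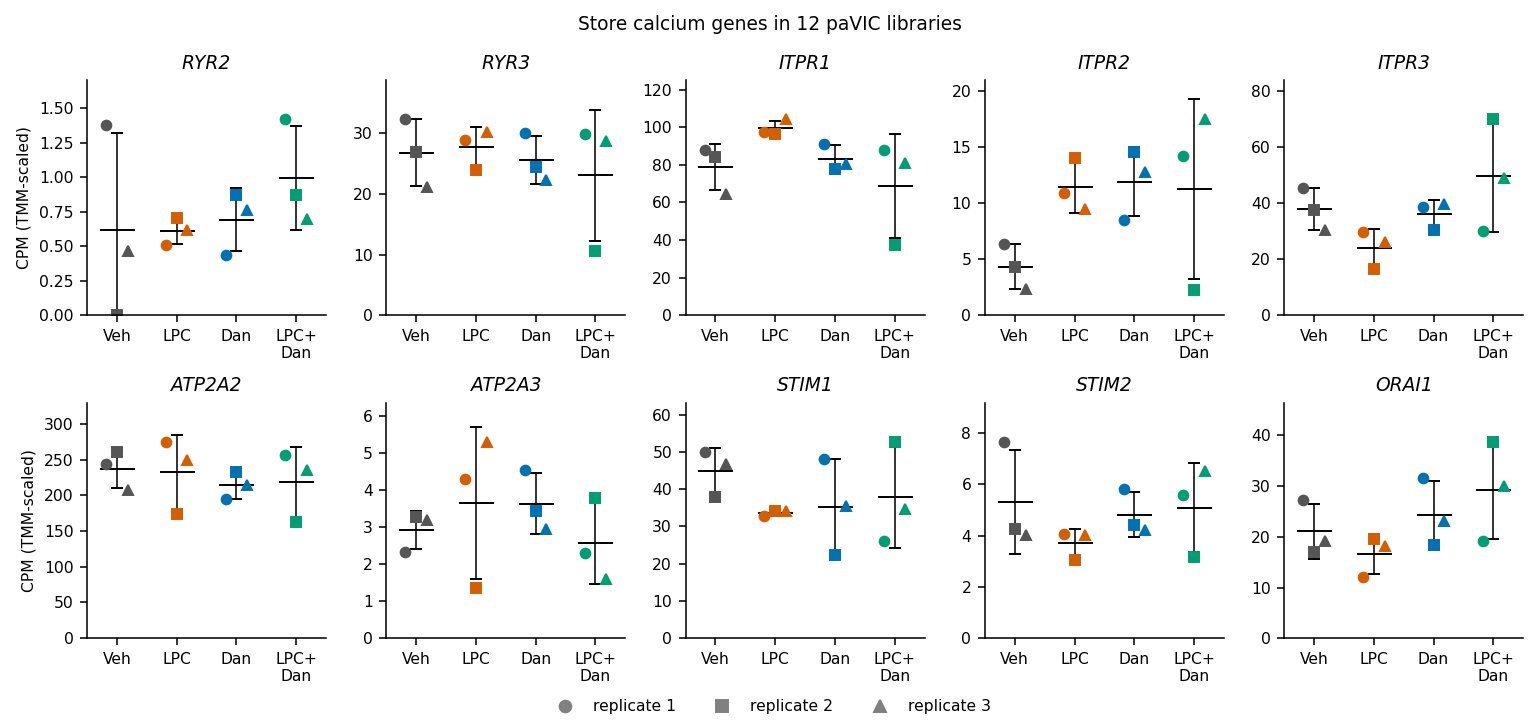
TMM-scaled CPM of the 10 store calcium genes in each library, on linear axes from 0 with a separate scale for each gene. Symbols are replicates 1 to 3, the horizontal line is the group mean and the bars are the SD (n = 3). ITPR2 in vehicle stays at or under 6.34 CPM while every LPC and dantrolene library is at 8.49 or more, and LPC + dantrolene replicate 2 (square) is the lowest library for RYR3, ITPR1, ITPR2 and ATP2A2.

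The fitted log2 fold change of ITPR2 with LPC was 1.39 (SE 0.41, 95% confidence interval 0.57 to 2.21), a 2.62-fold increase, higher in 3 of 3 isolations, with an adjusted p of 0.0161 from edgeR with Benjamini-Hochberg adjustment. Over all genes tested, 8.54% were called up and 0.144% down with LPC, against 1 up and 0 down of these 10 genes. DESeq2's Wald test called 0 of the 10 in this comparison, and ITPR2 was the 1 gene with an unadjusted p under 0.05. The log2 value lay between 1.15 and 1.77 under all 19 alternatives. The adjusted p passed the threshold in 12 of them and rose to 0.073 with DESeq2, to 0.0577 with total counts alone as the scale, and to 0.0632 with the isolation as a replicate block. It also rose above 0.05 without vehicle replicate 2 (1.39, adjusted p 0.114), vehicle replicate 3 (1.15, 0.117), LPC replicate 1 (1.43, 0.0803) or LPC replicate 2 (1.22, 0.24).

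With dantrolene alone ITPR2 rose by 1.45 on the log2 scale (SE 0.41, 95% confidence interval 0.63 to 2.27), 2.73-fold, in 3 of 3 isolations, with an adjusted p of 0.0121 from edgeR with Benjamini-Hochberg adjustment. Dantrolene called 7.54% of all tested genes up and 1.26% down, and of the 10 store calcium genes 1 up and 0 down. DESeq2 called the same gene, with an adjusted p of 0.0491. The value ranged from 1.202 to 1.83 over the alternatives. The call was lost with the replicate block (adjusted p 0.0527) and without vehicle replicate 2 (1.44, 0.0978), vehicle replicate 3 (1.202, 0.0946), LPC replicate 2 (1.45, 0.0726) or dantrolene replicate 2 (1.28, 0.125).

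With LPC + dantrolene the log2 fold change of ITPR2 against vehicle was 1.37 (SE 0.41, 95% confidence interval 0.56 to 2.19), with an adjusted p of 0.0218 in edgeR with Benjamini-Hochberg adjustment, but it was higher in only 2 of 3 isolations and the groups overlapped. Among all tested genes 6.23% were called up and 0.9% down, against 1 and 0 of the 10. Without LPC + dantrolene replicate 2 the value was 1.90 with an adjusted p of 1.5e-05, and without replicate 3 it was 0.91 with an adjusted p of 0.389. The call was also lost without LPC + dantrolene replicate 1 (1.18, 0.181), vehicle replicate 2 (1.37, 0.142), vehicle replicate 3 (1.11, 0.168), LPC replicate 1 (1.37, 0.0621) or LPC replicate 2 (1.37, 0.111). It did not pass with DESeq2 (0.0832), with the replicate block (0.132) or with only the vehicle and LPC + dantrolene libraries in the fit (0.153). The 3 comparisons share the vehicle libraries, so the recurrence of ITPR2 in them is not 3 separate observations.

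**Figure D2:**
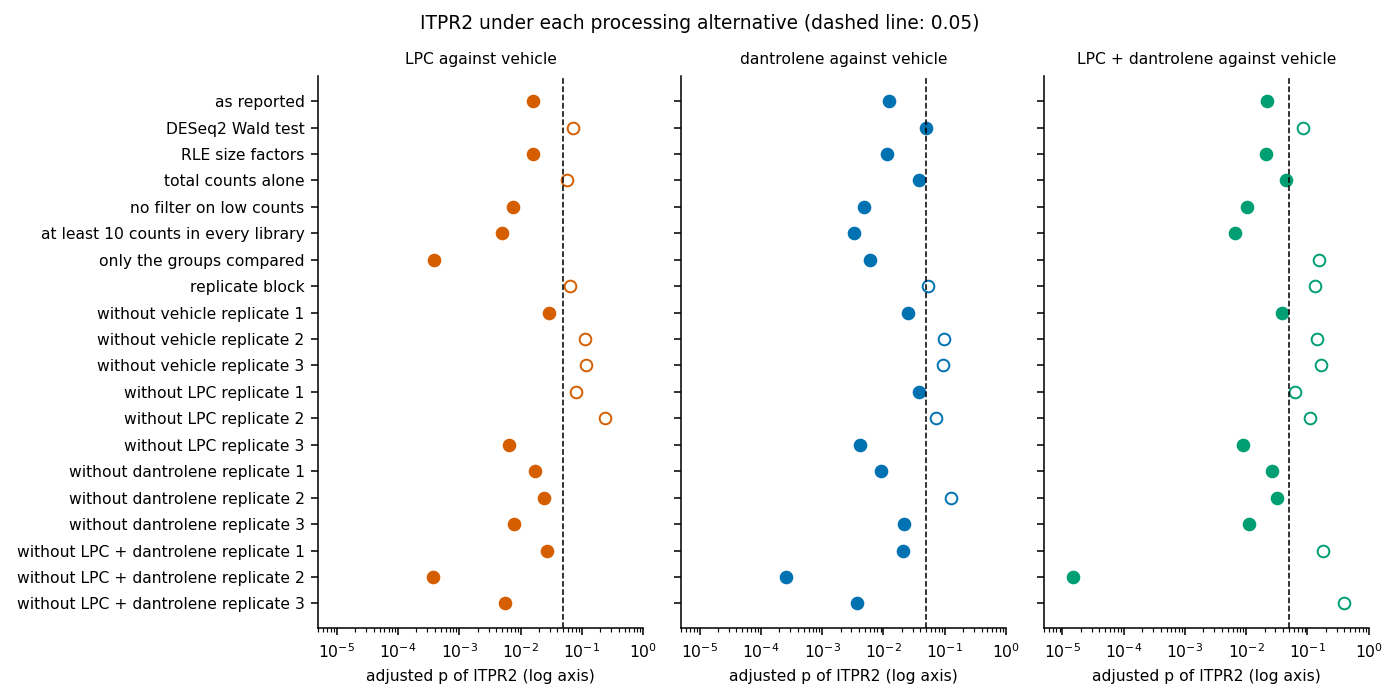
Adjusted p of ITPR2 on a log axis in each treatment against vehicle, as reported and under each of 19 alternatives (filled points are under 0.05, the dashed line). Points cross the line for 7 alternatives with LPC, 5 with dantrolene and 9 with LPC + dantrolene, and the smallest value, 1.5e-05, is LPC + dantrolene without its replicate 2.

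Several properties of the libraries also differed between vehicle and treated groups. The TMM factor was 0.879 to 0.918 in vehicle and 0.863 in LPC + dantrolene replicate 2, the 4 libraries with the lowest ITPR2, and 0.923 to 1.15 in the other 8. With total counts alone as the scale the ITPR2 difference was larger, at 1.57 with LPC, 1.69 with dantrolene and 1.67 with LPC + dantrolene. The summed CPM of 9 endothelial markers was 89.9 to 92.1 in vehicle. In the treated groups the range was 66.8 to 73.8 for LPC, 50.8 to 69.5 for dantrolene and 55.9 to 63.8 for LPC + dantrolene. All treated libraries were thus below all vehicle libraries in the sum of these endothelial markers. PECAM1 (432 to 1087 counts), CDH5 (245 to 646), TIE1 (97 to 265), NOS3 (25 to 118) and VWF (10 to 67) were counted in every library, and KDR, TEK, EMCN and CLDN5 were at 0 in some. The summed CPM of 10 interstitial fibroblast markers was 63571 to 72966 in vehicle and lower with dantrolene, at 45287 to 57769, but overlapped vehicle with LPC (44422 to 67366) and with both agents (50878 to 81706). The part of these properties in the ITPR2 result was not tested.

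ITPR3, the type 3 receptor, had lower values with LPC that did not pass the test. Its CPM was 45.5, 37.5 and 30.5 in vehicle and 29.6, 16.6 and 26.0 with LPC, so that all LPC libraries were below all vehicle libraries. It was 38.5, 30.4 and 39.7 with dantrolene and 30.0, 69.8 and 48.9 with LPC + dantrolene. The log2 difference between LPC and vehicle was −0.65 (95% confidence interval −1.32 to 0.01), with an adjusted p of 0.331 in edgeR with Benjamini-Hochberg adjustment. Dantrolene alone gave −0.06 (−0.73 to 0.60) and LPC + dantrolene 0.39 (−0.27 to 1.05), the latter 0.11 without its replicate 2.

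Counts of one gene relative to another in the same library do not depend on the scaling, and such ratios were added after the values had been seen. Counts of ITPR2 per 100 counts of ITPR1 were 7.21, 5.15 and 3.68 in vehicle, 11.13, 14.5 and 9.14 with LPC, and 9.29, 18.6 and 15.9 with dantrolene. They were 16.1, 5.98 and 21.6 with LPC + dantrolene. Vehicle averaged 5.35 ± 1.77 (SD, n = 3), below all LPC libraries (11.6 ± 2.73) and all dantrolene libraries (14.6 ± 4.80), and overlapped LPC + dantrolene (14.6 ± 7.92) through its replicate 2.

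Counts of ITPR3 per 100 of ITPR1 were 51.7, 44.7 and 47.2 in vehicle and 30.3, 17.2 and 24.95 with LPC. With dantrolene they were 42.1, 39.1 and 49.5, and with LPC + dantrolene 34.1, 187 and 60.6. The LPC values (mean 24.1 ± 6.59, SD, n = 3) did not overlap the vehicle values (47.9 ± 3.58), and all LPC + dantrolene libraries were above all LPC libraries. All LPC libraries were already above vehicle in ITPR1 and below it in ITPR3. The separation of this ratio from vehicle was fixed by those values and is not further evidence. For both ratios with LPC against vehicle the two-sided exact permutation p was 0.1, the smallest that 3 against 3 allows. It was 0.5 after Benjamini-Hochberg adjustment over 20 such tests of 5 ratios. Groups of 3 without overlap always give 0.1 in this test, which ignores the pairing by isolation, so it is not further evidence.

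**Figure D3:**
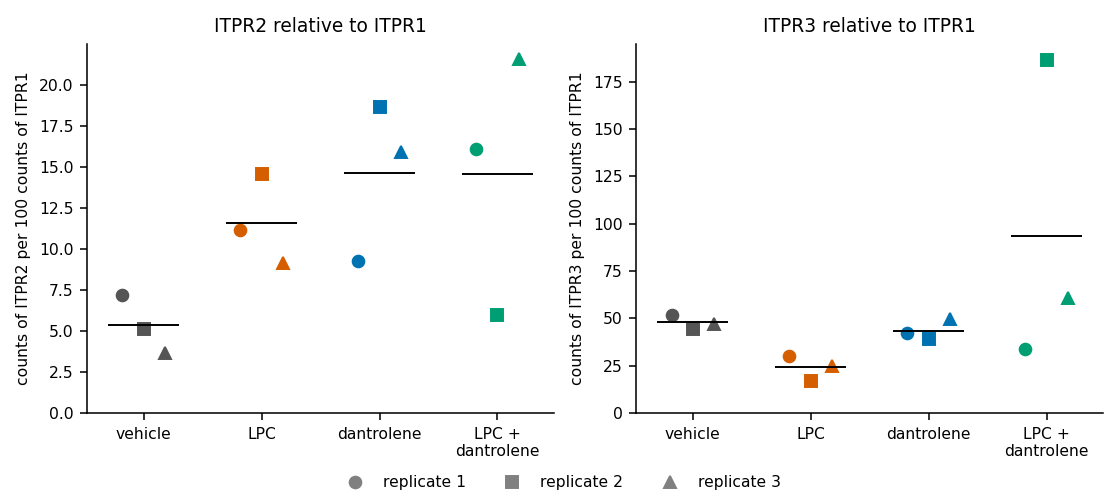
Counts of ITPR2 (left) and ITPR3 (right) per 100 counts of ITPR1 in each library, on linear axes from 0, with the group mean as a line. With LPC all 3 libraries are above vehicle on the left and below vehicle on the right, and LPC + dantrolene replicate 2 (square) is at 5.98 on the left and 187 on the right.

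The pumps that refill the store did not change detectably. ATP2A2, which encodes SERCA2, had a CPM of 243, 261 and 207 in vehicle, 274, 174 and 249 with LPC, and 195, 233 and 214 with dantrolene. With LPC + dantrolene it was 256, 162 and 236. The groups overlapped throughout, and the highest library was only 1.69-fold above the lowest. The log2 fold change against vehicle was −0.03 with LPC (95% confidence interval −0.66 to 0.60), −0.15 with dantrolene (−0.78 to 0.48) and −0.12 under LPC + dantrolene (−0.75 to 0.51). ATP2A3, which encodes SERCA3, a pump of lower calcium affinity, had 25 to 103 counts per library. Its mean CPM was 2.93 ± 0.519 in vehicle, 3.65 ± 2.05 with LPC, 3.64 ± 0.819 with dantrolene and 2.57 ± 1.11 with LPC + dantrolene (SD, n = 3). All 4 groups overlapped, and within LPC the values were 4.30, 1.36 and 5.30. The LPC interval of −0.64 to 1.28 includes changes over 2-fold for this sparser gene.

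The calcium sensors of the store were likewise below the threshold. STIM1, the main sensor for store-operated entry, had a CPM of 49.98, 37.8 and 46.8 in vehicle and 32.7, 34.1 and 34.1 with LPC. With dantrolene it was 48.1, 22.4 and 35.4 and with LPC + dantrolene 26.1, 52.6 and 34.7. All LPC libraries were below all vehicle libraries, with a log2 difference of −0.42 (95% confidence interval −1.08 to 0.24) and an adjusted p of 0.608 from edgeR with Benjamini-Hochberg adjustment. The dantrolene difference was −0.35 (−1.01 to 0.31), lower in 3 of 3 isolations though the groups overlapped, and that of LPC + dantrolene was −0.25 (−0.91 to 0.41), or −0.51 without replicate 2. STIM2, a sensor that responds to smaller losses of store calcium, had 51 to 160 counts. Its mean CPM was 5.30 ± 2.02 in vehicle, 3.70 ± 0.571 with LPC, 4.81 ± 0.869 with dantrolene and 5.09 ± 1.73 with LPC + dantrolene (SD, n = 3), with overlap of LPC and vehicle and a log2 difference of −0.52 (−1.35 to 0.31).

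ORAI1 encodes the pore of the calcium entry channel that STIM proteins open. Its CPM was 27.3, 17.0 and 19.1 in vehicle, 12.04, 19.5 and 18.1 with LPC, and 31.6, 18.4 and 23.2 with dantrolene. It was 19.3, 38.6 and 29.9 with LPC + dantrolene. Each treatment overlapped vehicle, and the dantrolene libraries were above the vehicle library of the same isolation in 3 of 3 cases. Against vehicle the log2 fold change was −0.35 with LPC (95% confidence interval −1.03 to 0.32), 0.20 with dantrolene (−0.47 to 0.88) and 0.47 under LPC + dantrolene (−0.20 to 1.14).

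**Figure D4:**
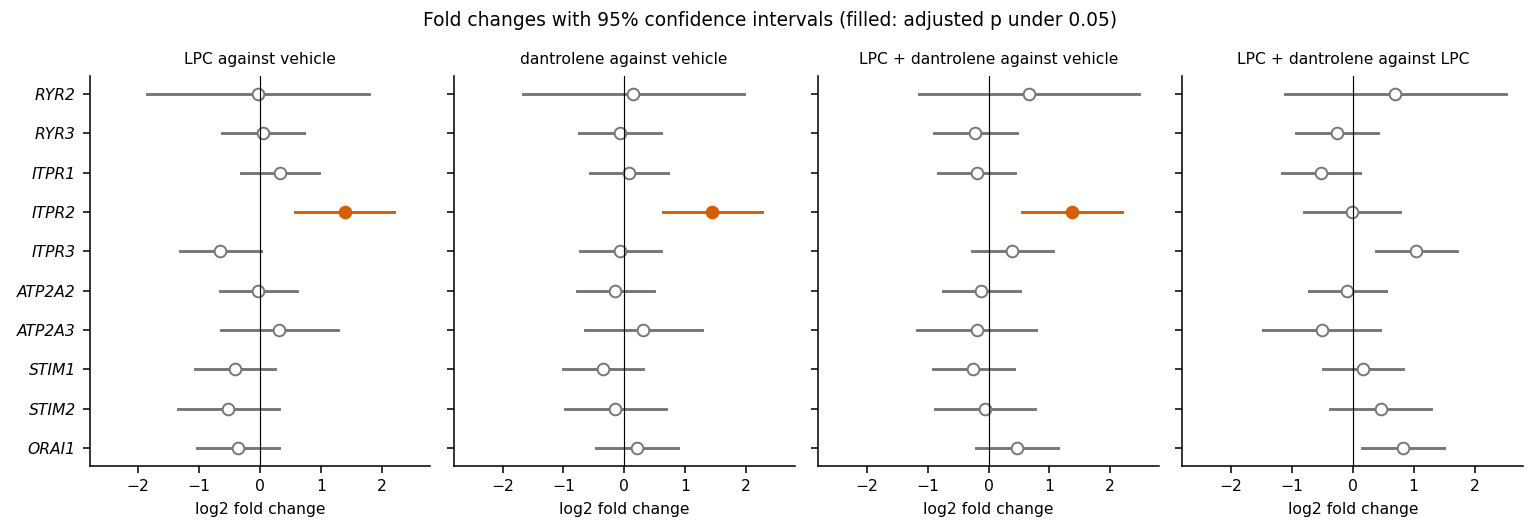
Log2 fold changes of the 10 genes from the edgeR fit with 95% confidence intervals, in 4 comparisons. Filled points passed an adjusted p of 0.05. ITPR2 alone is filled, at 1.39, 1.45 and 1.37 against vehicle, and in LPC + dantrolene against LPC the intervals of ITPR3 (from 0.37) and ORAI1 (from 0.15) lie above 0 without passing after adjustment.

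The effect of dantrolene in the presence of LPC was read from LPC + dantrolene against LPC. By edgeR with Benjamini-Hochberg adjustment 0 of the 10 genes were called, beside 0.219% of all tested genes up and 0.288% down, and DESeq2 also called 0. At an unadjusted p under 0.05 there were 2, ITPR3 and ORAI1. Counts at that unadjusted level, here and elsewhere, are given without the share of all tested genes and are not read as an excess. ITPR3 was 1.04 higher on the log2 scale (SE 0.34, 95% confidence interval 0.37 to 1.71), in 3 of 3 isolations, with an adjusted p of 0.192. ORAI1 was 0.82 higher (SE 0.34), in 3 of 3 isolations, with an adjusted p of 0.519. Both values were smaller without LPC + dantrolene replicate 2, at 0.70 (adjusted p 0.446) and 0.55 (0.733). Without LPC + dantrolene replicate 1, ITPR3 passed the threshold at 1.30 with an adjusted p of 0.0483. ITPR2 was at −0.02 (−0.81 to 0.77), and 0.45 without LPC + dantrolene replicate 2. ITPR1, lower in 3 of 3 isolations, was at −0.53 (−1.17 to 0.11), and −0.25 without that library.

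Between LPC + dantrolene and dantrolene alone 0 of the 10 genes were called, 0 had an unadjusted p under 0.05 in edgeR or DESeq2, and only 0.0151% of all tested genes were called up and 0.00757% down. The log2 fold changes of the 10 lay between −0.51 (ATP2A3) and 0.52 (RYR2).

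The interaction asks whether the LPC effect differed by the presence of dantrolene, and is the LPC difference measured with dantrolene minus that measured in its absence. It was called for 0 of the 10 genes by edgeR with Benjamini-Hochberg adjustment and for 0 by DESeq2. Of all tested genes 0.159% were called with a positive interaction and 4.49% with a negative one. Of the 10, 2 had an unadjusted p under 0.05. ITPR2 was at −1.47 on the log2 scale (SE 0.57, 95% confidence interval −2.60 to −0.34) with an adjusted p of 0.142, and leaving out 1 library moved it between −1.93 (without LPC + dantrolene replicate 3, adjusted p 0.0182) and −1.05 (without LPC + dantrolene replicate 2, 0.278), with adjusted p up to 0.48. ITPR3 was at 1.11 (SE 0.47, 0.17 to 2.05) with an adjusted p of 0.21, and at 0.70 (adjusted p 0.548) without LPC + dantrolene replicate 2.

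Over the 10 genes the median log2 fold change was −0.03 with LPC, 0.01 with dantrolene and −0.09 with LPC + dantrolene. The medians of all tested genes in the same comparisons were −0.18, −0.11 and −0.08. Values lay on both sides of 0 in each comparison, from −0.65 (ITPR3) to 1.39 (ITPR2) with LPC.

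In LPC + dantrolene replicate 2, 4 of the 10 genes (RYR3, ITPR1, ITPR2 and ATP2A2) had their lowest CPM of all 12 libraries and 3 (ITPR3, STIM1 and ORAI1) their highest, beside the 27.1% and 20.7% of all tested genes. RYR2, ATP2A3 and STIM2 were at neither end there. Against the mean of the other replicates of its group it was 2.77-fold lower for RYR3, 2.26-fold lower for ITPR1 and 1.52-fold lower for ATP2A2. It was 1.93-fold higher for ATP2A3, 1.77-fold higher for ITPR3, 1.73-fold higher for STIM1 and 1.57-fold higher for ORAI1.

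Across the 12 libraries the log2 CPM of RYR3 and ITPR1 had a Pearson r of 0.93, and ITPR3 and ORAI1 had 0.69, while ITPR2 had −0.73 with STIM1. These coefficients describe 12 libraries in 4 groups that share treatments, isolations and scaling, and carry no test. LPC + dantrolene replicate 2 was the lowest library for RYR3, ITPR1 and ITPR2 and the highest for ITPR3, ORAI1 and STIM1. It is therefore an extreme point in each of these pairs. Coefficients without that library, here and in the counts of genes that follow, are not given. Of 11485 other tested genes with a symbol, 1069 had an r of 0.9 or more with ITPR2, led by AP5M1, NHLRC2 and HSPD1 at 0.99 each. For the other genes the number at that level was 262 for ITPR1 (nearest ACVR2A, 0.98), 166 for STIM1 (CNPPD1, 0.98) and 105 for RYR3 (YEATS2, 0.98). It was 22 for ORAI1 (CHRD, 0.96), 21 for ITPR3 (PLXND1, 0.96), 18 for ATP2A2 (TNPO3, 0.96), 1 for STIM2 (MRPL3, 0.91), and 0 for RYR2 (nearest TEX14, 0.90) and ATP2A3 (PDSS1, 0.89). The pattern of ITPR2 was therefore the one most widely shared with other genes.

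The other genes of the same pathway were drawn from 7 lists with 120 genes, of which 108 had a row and 95 were tested. With LPC, 8 of 95 were upregulated and 0 downregulated (8.42% up, beside 8.54% of all genes). With dantrolene, 5 were upregulated and 1 downregulated (5.26% up, beside 7.54%), and LPC + dantrolene gave 4 upregulated genes and none in the other direction (4.21% up, beside 6.23%). These shares were near or below those of all genes. Their median log2 fold change was −0.25 with LPC, −0.21 with dantrolene and −0.18 with LPC + dantrolene.

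Of the 20 tested genes of IP3 supply and removal, 2 rose with LPC, PLCB1 and GNAQ. With dantrolene 3 rose, PLCB1, GNAQ and PLCB4, and with LPC + dantrolene 2, PLCB1 and PLCH2. These were 10%, 15% and 10% of the list, beside 8.54%, 7.54% and 6.23% of all tested genes called up, and rest on 3 genes or fewer. PLCB1 encodes a phospholipase C that makes IP3. Its CPM was 25.9, 28.5 and 15.9 in vehicle, 72.7, 56.2 and 58.8 with LPC, 39.6, 82.0 and 51.7 with dantrolene, and 63.5, 23.4 and 87.8 with LPC + dantrolene. All LPC and dantrolene libraries lay above vehicle, while LPC + dantrolene replicate 2 fell among the vehicle libraries. PLCB1 rose by 1.42 on the log2 scale with LPC (SE 0.35, adjusted p 0.00283 from edgeR with Benjamini-Hochberg adjustment), which passed under all 19 alternatives. It was 1.31 with LPC + dantrolene (adjusted p 0.00784). There it did not pass with only the groups compared (1.43, adjusted p 0.053) or without vehicle replicate 3 (1.13, 0.101) or LPC + dantrolene replicate 3 (0.89, 0.297). With dantrolene its edgeR call was lost without vehicle replicate 3 (1.13, adjusted p 0.0886) or dantrolene replicate 2 (0.96, 0.204). PLCH2, also of this list, lost its LPC + dantrolene call under 6 of 19 alternatives.

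GNAQ, the G protein subunit that activates phospholipase C beta, had a CPM of 29.3, 25.1 and 17.1 in vehicle and of 61.7, 60.7 and 59.8 with LPC. It was 39.3, 63.3 and 47.9 with dantrolene and 53.6, 15.0 and 53.9 with LPC + dantrolene. The LPC libraries were all above vehicle and close to each other. All dantrolene libraries were above vehicle too, and LPC + dantrolene replicate 2 was below it. GNAQ rose by 1.35 on the log2 scale with LPC (SE 0.35, adjusted p 0.00439 in edgeR with Benjamini-Hochberg adjustment), and the call was lost narrowly without vehicle replicate 3 (1.21, adjusted p 0.0529) or LPC replicate 2 (1.35, 0.0503). It was also called up with dantrolene, a call lost under 8 of 19 alternatives. PLCB4, a further phospholipase C beta, was at 0.954, 0.934 and 0.755 CPM in vehicle and 4.87, 4.91 and 3.82 with dantrolene. Its log2 fold change with dantrolene was 2.35 (SE 0.62, adjusted p 0.00562 in edgeR with Benjamini-Hochberg adjustment, and 0.161 in DESeq2), with the call lost without vehicle replicate 1 (2.42, 0.0653), vehicle replicate 2 (2.40, 0.0588), LPC replicate 2 (2.35, 0.0548) or dantrolene replicate 2 (2.29, 0.0504).

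Among the 17 tested partners of store-operated entry, 3 rose with LPC (SEPTIN7, TRPC1 and CAV1) and 2 with each of the other treatments (SEPTIN7 and TRPC1). These were 17.6%, 11.8% and 11.8% of a short list, beside 8.54%, 7.54% and 6.23% of all tested genes called up. SEPTIN7 encodes a septin, a cytoskeletal protein of the cell cortex. Its CPM was 67.8, 44.2 and 52.4 in vehicle, 162, 250 and 185 with LPC, 132, 224 and 145 with dantrolene, and 185, 75.2 and 178 with LPC + dantrolene. Every treated library was above every vehicle library. The log2 fold change was 1.86 with LPC (SE 0.34, adjusted p 3.2e-05) and 1.61 with dantrolene (SE 0.34, adjusted p 0.00039), both past the threshold of edgeR with Benjamini-Hochberg adjustment under all 19 alternatives. With LPC + dantrolene it was 1.41 (SE 0.34, adjusted p 0.00209), lost without vehicle replicate 2 (1.28, adjusted p 0.0584).

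TRPC1, a cation channel of the plasma membrane linked to store-operated entry, was at 4.44, 2.74 and 1.16 CPM in vehicle, 6.35, 10.1 and 6.17 with LPC, 5.37, 9.56 and 11.5 with dantrolene, and 10.9, 3.67 and 15.1 with LPC + dantrolene. LPC and dantrolene libraries lay above vehicle, and replicate 2 of LPC + dantrolene fell within the vehicle range. With LPC TRPC1 rose by 1.43 on the log2 scale (adjusted p 0.0166 in edgeR with Benjamini-Hochberg adjustment), lost with DESeq2 (0.0561), the replicate block (0.0666), and without vehicle replicate 2 (1.42, 0.105) or 3 (1.12, 0.177) or LPC replicate 1 (1.54, 0.0502) or 2 (1.16, 0.261). The log2 fold change was 1.65 with dantrolene (adjusted p 0.00448 in edgeR with Benjamini-Hochberg adjustment), lost without vehicle replicate 2 (1.64, 0.0502) or vehicle replicate 3 (1.33, 0.0669). It was 1.82 with LPC + dantrolene (adjusted p 0.00164), lost without replicate 3 of that group (1.38, 0.0524). CAV1, the gene of the caveolar coat protein caveolin 1, rose by 1.08 with LPC (adjusted p 0.0301), in 3 of 3 isolations. Its call was lost with the replicate block (0.0737) and without any 1 of the vehicle (0.999 to 1.22) or LPC libraries (1.02 to 1.18).

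Of the 16 tested release channel partners 1 was called, down with dantrolene, beside 1.26% of all tested genes called down. FKBP1B, which encodes calstabin 2, a protein that binds and steadies ryanodine receptors, was at 11.2, 7.01 and 9.88 CPM in vehicle, 7.43, 7.49 and 6.64 with LPC, 3.01, 4.72 and 4.53 with dantrolene, and 5.997, 3.91 and 4.61 with LPC + dantrolene. All dantrolene libraries were below all vehicle libraries. The log2 fold change with dantrolene was −1.19 (SE 0.38, 95% confidence interval −1.96 to −0.43, adjusted p 0.0334 in edgeR with Benjamini-Hochberg adjustment). This call was lost under 8 of 19 alternatives, among them total counts alone (−0.95, adjusted p 0.163), the replicate block (0.0867), and the fits without vehicle replicate 1 (−1.04, 0.127), vehicle replicate 3 (−1.11, 0.175) or dantrolene replicate 1 (−0.96, 0.195), 2 (−1.31, 0.0867) or 3 (−1.27, 0.0983).

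The remaining lists held few changes. Of 3 tested SERCA regulators and other store pumps, 1 rose with LPC, TMX1, a membrane thioredoxin of the endoplasmic reticulum. Of 19 genes of transfer from store to mitochondrion 2 rose with LPC, PDZD8 and MICU3. These counts stand beside 8.54% of all tested genes called up with LPC. In edgeR with Benjamini-Hochberg adjustment, TMX1 (log2 1.08, adjusted p 0.0335) lost its call under 6 of 19 alternatives, which were total counts alone, the replicate block, and the fits without vehicle replicate 2 (0.93) or 3 (1.05) or LPC replicate 1 (1.02) or 2 (0.98). PDZD8 (1.16, adjusted p 0.017) lost it under 5, the replicate block and the fits without vehicle replicate 2 (1.24) or 3 (1.00) or LPC replicate 1 (1.13) or 2 (1.16). MICU3 (1.57, adjusted p 0.0454) was higher in 2 of 3 isolations and overlapped vehicle. It lost its call under 7, which were DESeq2 (adjusted p 0.0574), total counts alone (0.0504), the replicate block (0.186), and the fits without vehicle replicate 2 (1.41) or 3 (1.324), LPC replicate 2 (0.95) or dantrolene replicate 2 (1.57). By edgeR with Benjamini-Hochberg adjustment, 0 of 6 store leak channels and 0 of 14 lumenal calcium-binding proteins were called in any of the 6 comparisons. Between LPC + dantrolene and LPC 0 of the 95 were called by edgeR and 1 by DESeq2, with 5 at an unadjusted p under 0.05. Between LPC + dantrolene and dantrolene 0 were called, with 0 at an unadjusted p under 0.05.

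**Figure D5:**
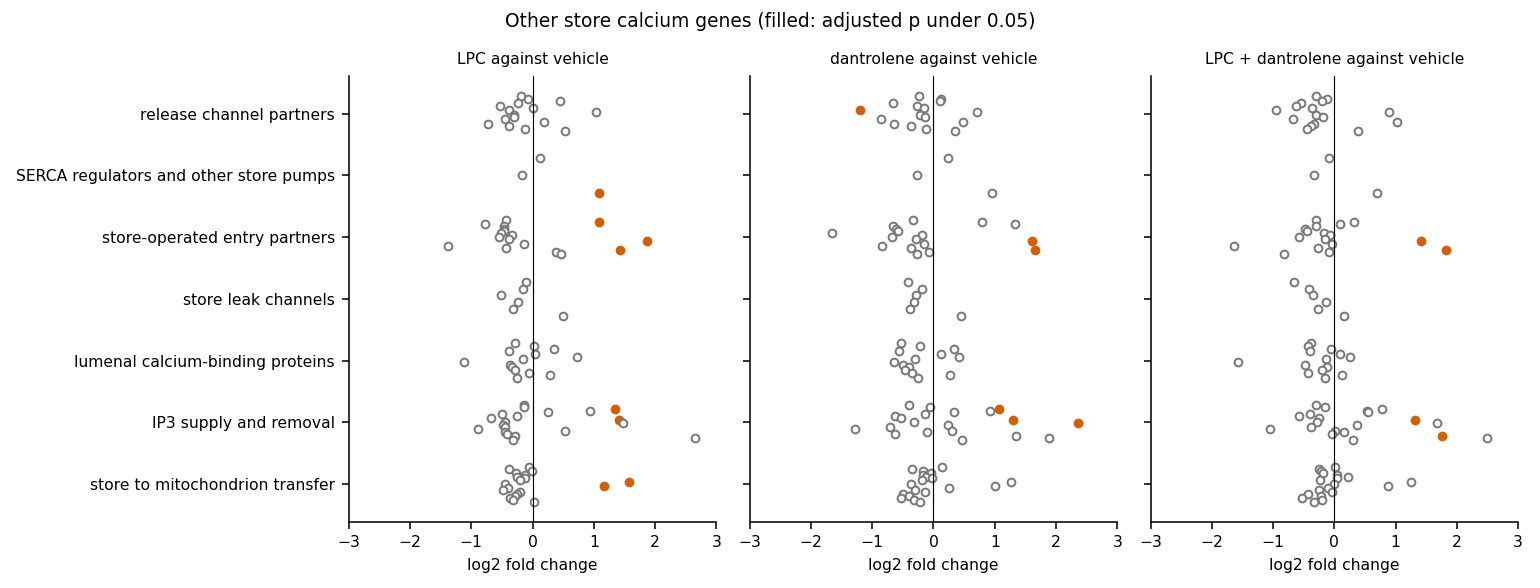
Log2 fold changes of the 95 tested genes of 7 store calcium lists in each treatment against vehicle, 1 point per gene (filled points passed an adjusted p of 0.05). Filled points number 8, 6 and 4 from left to right, and the rows of entry partners and IP3 supply hold some in all 3 panels. Over all 95 genes the shares called up were near or below those of all tested genes.

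In the assembly Sscrofa11.1, the RefSeq gene table places ITPR2 on chromosome 5 (46935923 to 47465681), ITPR1 on chromosome 13 (61068131 to 61398918) and ITPR3 on chromosome 7 (29835922 to 29901305). RYR3 lies on chromosome 7 (80640030 to 81208576) and RYR2 on chromosome 14 (53652140 to 54406691). The spans of RYR3 and ATP2A2 overlap the protein-coding genes AVEN and ANAPC7, and that of ITPR2 overlaps LOC110260584. RYR2 overlaps a lncRNA and pseudogenes, 3 annotated genes in all, and ITPR1 overlaps a lncRNA. Whether reads were counted by strand is not given in the sources used here, so reads shared with an overlapping gene cannot be told apart. These counts are uncertain to that extent.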

How the data were processed

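Poly(A) RNA of 12 paVIC libraries, 4 groups of 3, was sequenced. The authors aligned the reads (the paper's methods name STAR, the submitters' processing notes HISAT2 2.0.5 and the build Sscrofa11.1), counted them on genes and removed batch differences with ComBat. The deposited counts are whole numbers, not scaled for library size. ComBat's estimates cost degrees of freedom that tests with group as the only term do not take into account, which can make adjusted p-values too small. The edgeR alternative with the isolation as a replicate block does spend degrees of freedom on the isolation. In it ITPR2 did not pass against vehicle with LPC (adjusted p 0.0632), dantrolene (0.0527) or LPC + dantrolene (0.132). The deposited tables of the authors' comparisons hold mean signals, fold changes, standard errors, test scores and p-values, and were not used.

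Counts were fitted in R 4.3.3 with edgeR 4.0.16 (filterByExpr, TMM, quasi-likelihood test, all 12 libraries, group as the only term), on the 13216 genes that passed the filter, with Benjamini-Hochberg adjustment over all of them and a threshold of 0.05. CPM values are TMM-scaled, with a prior count of 2 for correlations. Ratios between genes were compared by exact permutation. The script was tested on simulated data. Alternatives were DESeq2 1.42.0, RLE factors, total counts, other filters, only the groups compared, the replicate block, a threshold of 0.1 and leaving out each library.

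The members and lists were chosen with earlier results of these data known. Named were all 10 members, up to 3 called pathway genes per direction and comparison with the smallest adjusted p, and the genes of nearest pattern. Further pathway genes named by symbol (TMX1, PDZD8, MICU3, PLCH2) and the ratios were chosen after their values were seen. The pathway lists were release channel partners, SERCA regulators and other store pumps, store-operated entry partners, store leak channels, lumenal calcium-binding proteins, IP3 supply and removal, and store to mitochondrion transfer. Marker lists were interstitial fibroblast, myofibroblast and smooth muscle, endothelial, leukocyte, cardiomyocyte and chondrocyte genes. No row carried the symbol of FKBP1A, JPH2, JPH3, PLN, MRLN, STRIT1, ERLN, ARLN, GRAMD2A, NUCB2 or ITPKB. Positions were matched by symbol.

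Samples with the same number are the same isolation per the labels. They were taken as pairs in the counts of isolations and in the replicate block, while the main tests had group as the only term. Deviations of samples of the same isolation from their group means had a median correlation of −0.152 (−0.536 to 0.207). The median was 0.108 between samples of other isolations and groups. The batch adjustment acts on these values, so they cannot tell how alike samples of an isolation were before it.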

Additional observations from a re-analysis of the deposited data

Results flagged for a closer look

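Of the 95 tested pathway genes, 3 had an effect of LPC that differed between cells with and without dantrolene by a test of the difference itself, the interaction in edgeR with Benjamini-Hochberg adjustment. All 3 belong to the lists of store-operated entry partners and IP3 supply, and their interactions were negative. Of all tested genes 4.49% had a negative interaction called, a larger share than 3 of 95, so such calls were not more frequent among the pathway genes. Of the 10 store calcium genes 0 were called, with 2 at an unadjusted p under 0.05 and 0 called by DESeq2.

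SEPTIN7 had an interaction of −2.06 on the log2 scale (SE 0.47, adjusted p 0.0034). The value was between −2.27 and −1.79 under the alternatives, and it did not pass without LPC replicate 2 (−1.86, adjusted p 0.0839) or dantrolene replicate 2 (−1.79, 0.0805). Against vehicle SEPTIN7 rose by 1.86 with LPC, by 1.61 with dantrolene and by 1.41 with both agents.

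GNAQ had an interaction of −1.65 (SE 0.49, adjusted p 0.0318). Every LPC and dantrolene library was above vehicle in GNAQ, and LPC + dantrolene replicate 2 (15.0 CPM) was below it. Leaving out 1 library moved the interaction between −1.90 and −1.32. It did not pass with total counts alone (−1.77, adjusted p 0.102), with the replicate block (−1.71, 0.0862), or without vehicle replicate 1 (−1.82, 0.0555), 2 (−1.68, 0.108) or 3 (−1.52, 0.103), LPC replicate 1 (−1.63, 0.112) or 2 (−1.65, 0.157), or dantrolene replicate 2 (−1.44, 0.206).

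CAV1 had an interaction of −1.55 (SE 0.48, adjusted p 0.0425). Its CPM was 34.4, 29.1 and 23.6 in vehicle, 64.8, 52.7 and 66.5 with LPC, 43.9, 62.6 and 44.6 with dantrolene, and 50.9, 14.7 and 42.9 with LPC + dantrolene. Every LPC and dantrolene library was above vehicle, and LPC + dantrolene replicate 2 was below it. The call was lost with total counts alone (adjusted p 0.107), with the replicate block (0.0867), and without vehicle replicate 1 (−1.69, 0.0681), 2 (−1.56, 0.137) or 3 (−1.49, 0.114), LPC replicate 1 (−1.51, 0.14), 2 (−1.65, 0.132) or 3 (−1.49, 0.081), dantrolene replicate 2 (−1.37, 0.231) or 3 (−1.64, 0.0521), or LPC + dantrolene replicate 2 (−1.25, 0.0525).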

How the results depend on the processing

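No called fold change of the 10 genes changed sign under any alternative. Of 1124 member fold changes under the alternatives, 67 changed sign, all in comparisons where the gene was called in neither fit, the largest of them 0.55 on the log2 scale as reported. The number of members called up with LPC was 0 with DESeq2, 0 with total counts alone and 0 with the replicate block, in place of 1. With dantrolene it was 0 with the replicate block, and with LPC + dantrolene it was 0 with DESeq2, with only the groups compared and with the replicate block. With 1 library left out these counts ranged from 0 to 1 in each treatment, as did members up in LPC + dantrolene against LPC and down in the interaction. Pathway genes called with LPC fell from 8 to 3 with the replicate block and were 2 to 12 with 1 library left out, the highest without LPC + dantrolene replicate 2. With dantrolene they were 11 with only the groups compared and 2 to 12 with 1 library left out, the highest again without that library. With LPC + dantrolene they were 2 with only the groups compared and 1 to 18, again highest without that library. Between LPC + dantrolene and LPC they were 1 with DESeq2, 1 with no filter, 1 with at least 10 counts in every library and 2 at an adjusted p under 0.1, and 0 to 1 with 1 library left out. In the interaction they were 1 with total counts alone, 1 with the replicate block and 0 to 7 with 1 library left out. The cause of these changes was not tested, except that fits without a library have fewer samples. The replicate block changed no other member's call. A correction for transcript length or GC content was not run, since the reference tables give only genomic spans. RYR2 was not tested under the filter of 10 counts in every library, and its depth left changes of several fold undetectable.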

Other observations

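The CPM sums of the remaining marker lists are given as values. Myofibroblast and smooth muscle genes summed to 25885 to 38644 in vehicle, 20489 to 31455 with LPC, 18955 to 26250 with dantrolene and 11495 to 34901 with LPC + dantrolene. The leukocyte list summed to between 12.6 and 28.8 over all libraries, and the chondrocyte list to between 2.32 and 11.02. LPC + dantrolene replicate 2 also had the largest share of counts in its 10 most abundant genes, 17.1%, where the other 11 libraries had between 11.4% and 15.6%.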
